A study of Mus musculus with 2 samples.

Results

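The 10 genes described here carry out and control the entry of pyruvate into mitochondria and its oxidation to acetyl-CoA. They were taken by symbol from 24346 genes: Mpc1 and Mpc2 of the pyruvate carrier, Pdha1, Pdhb and Dlat of the pyruvate dehydrogenase complex, the kinase genes Pdk1, Pdk2, Pdk3 and Pdk4, and the phosphatase gene Pdp1. All 10 symbols were found. RNA was sequenced from Gr-1+ CD11b+ cells, a myeloid population that includes neutrophils and monocytes, of BALB/c mice given 3% dextran sulfate sodium (DSS), which induces colitis, for 6 days. In both groups the cells came from such mice. One library was made from cells kept without ATPγS (control, n = 1) and 1 from cells given ATPγS, a slowly hydrolysed ATP analogue, for 2.5 hours (n = 1). The labels write the dose of ATPγS as 100, in a molar unit whose prefix is unreadable, and they name neither the number nor the age of the animals. The series title places the study in P2X4-dependent metabolism of myeloid cells, so the comparison asks how these transcripts differed with ATPγS.

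Pyruvate made by glycolysis crosses the inner mitochondrial membrane through a carrier built of MPC1 and MPC2. The pyruvate dehydrogenase complex then turns it into acetyl-CoA, which enters the TCA cycle. Pyruvate dehydrogenase kinases (PDK) phosphorylate the E1 alpha subunit and switch the complex off, and the phosphatases (PDP) remove that phosphate and switch it on again. In myeloid cells this step sets apart pyruvate that is oxidised from pyruvate that leaves the cell as lactate.

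With 1 library per condition there is no replicate error and no p-value, so every difference below is between these libraries. Levels are FPKM, fragments per length of transcript and per sequenced fragments, so they can be compared between genes. A fold is a ratio of FPKM. A log2 ratio here is that of the FPKM after 1 was added to both values, ATPγS over control. This pulls low genes towards 0. A gene was counted as higher or lower from 2-fold on that scale. Intervals are 95% exact intervals of counting error alone, from reads estimated with library totals recovered as 2132000 fragments (control) and 2848000 (ATPγS). Fewer cells expressing a gene and less RNA of it per cell cannot be told apart in such bulk libraries.

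In the ATPγS library 2 of the 10 genes were at least 2-fold higher, the kinase genes Pdk1 and Pdk3. The carrier gene Mpc1 and the phosphatase gene Pdp1 were at least 2-fold lower, and 6 genes lay between. Of those 6, Mpc2 (log2 ratio -0.93) and Pdk2 (0.95) came closest to the threshold, and both E1 genes stood near their control levels. All 10 genes had a mean FPKM of at least 1, Pdk2 only through its level in the ATPγS library. Among all 18311 genes with such a mean, 13.8% passed the threshold on the higher side and 9.91% on the lower side. At 1.5-fold, 4 of the 10 genes were higher and 3 lower, beside 24.1% and 20.7% of all genes, and at 3-fold 1 was higher and 1 lower, beside 6.3% and 3.34%. A count of 2 genes in each direction at 2-fold is close to the background, and the description below rests on single genes. The median log2 ratio of the 10 genes was 0.01, and that of all 18311 genes was also 0.01. By the counting interval, 4 genes lay wholly above a ratio of 1, where 20.9% of all genes did, 3 lay wholly below it, where 21.3% did, and 3 included it.

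**Figure D1:**
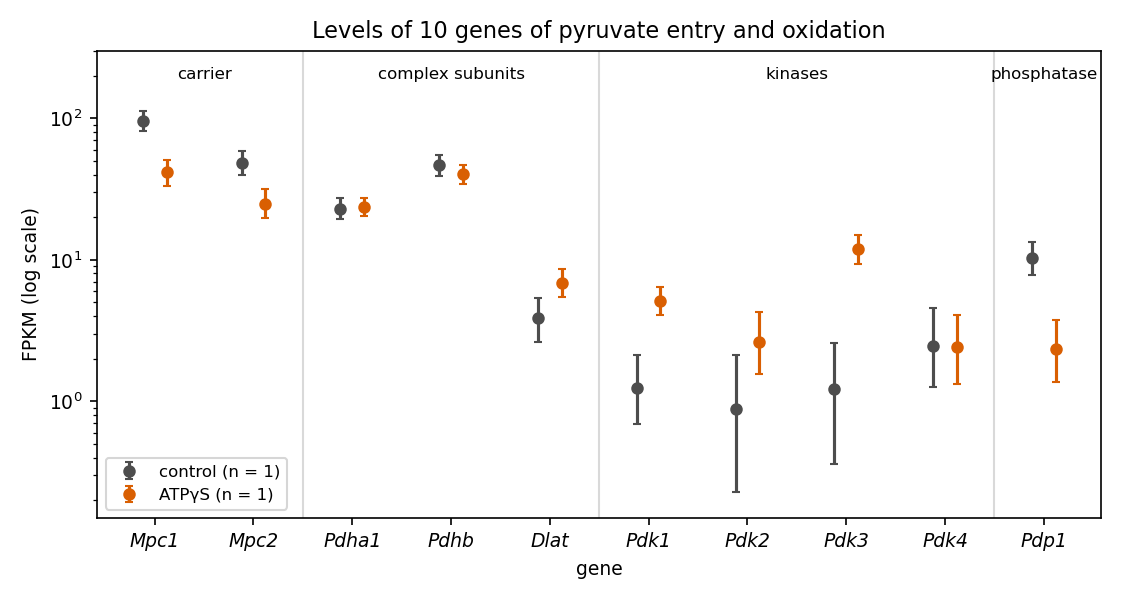
FPKM of each gene (y axis, log scale) in the control library (grey) and the ATPγS library (orange), grouped by role, with 95% counting intervals as bars. The bars of the 2 libraries do not overlap for Mpc1, Mpc2, Dlat, Pdk1, Pdk3 and Pdp1. They overlap for Pdha1, Pdhb, Pdk2 and Pdk4. How often such bars fail to overlap among all genes is not given here.

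The sequences upstream of Pdk1, Pdk2 and Pdk3 and of both carrier genes are shown because the kinase Pdk1 is a known target of the hypoxia-inducible factor HIF, whose binding sites share a short core. Each is the 250 bases before the first transcription start listed for the gene by RefSeq (GRCm38.p6), 5′ to 3′ on the strand of the gene, at chr2:71872974-71873223 (plus strand) for Pdk1, chr11:95041372-95041621 (minus strand) for Pdk2, chrX:93832151-93832400 (minus strand) for Pdk3, chr17:8283537-8283786 (plus strand) for Mpc1 and chr1:165461010-165461259 (plus strand) for Mpc2. Not all of these starts match the gene spans given below, which are from GENCODE. The windows of Mpc1 and Mpc2 lie inside those spans, and that of Pdk3 overlaps the beginning of its span. Capitals mark the core, ACGTG or GCGTG, on either strand.
Pdk1: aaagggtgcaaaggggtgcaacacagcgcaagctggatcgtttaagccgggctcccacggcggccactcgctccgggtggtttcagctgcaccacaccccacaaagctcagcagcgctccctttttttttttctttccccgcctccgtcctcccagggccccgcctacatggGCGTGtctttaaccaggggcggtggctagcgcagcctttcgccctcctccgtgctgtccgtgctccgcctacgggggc
Pdk2: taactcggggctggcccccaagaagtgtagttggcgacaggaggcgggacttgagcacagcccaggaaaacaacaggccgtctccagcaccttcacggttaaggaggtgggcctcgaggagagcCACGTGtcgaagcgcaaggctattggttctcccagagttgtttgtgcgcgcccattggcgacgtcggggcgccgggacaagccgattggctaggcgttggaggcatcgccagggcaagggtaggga
Pdk3: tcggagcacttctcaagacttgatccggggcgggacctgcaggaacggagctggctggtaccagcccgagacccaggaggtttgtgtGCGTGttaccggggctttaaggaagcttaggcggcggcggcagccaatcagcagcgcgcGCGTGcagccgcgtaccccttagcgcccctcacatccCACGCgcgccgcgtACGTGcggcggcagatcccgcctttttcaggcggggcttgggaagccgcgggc
Mpc1: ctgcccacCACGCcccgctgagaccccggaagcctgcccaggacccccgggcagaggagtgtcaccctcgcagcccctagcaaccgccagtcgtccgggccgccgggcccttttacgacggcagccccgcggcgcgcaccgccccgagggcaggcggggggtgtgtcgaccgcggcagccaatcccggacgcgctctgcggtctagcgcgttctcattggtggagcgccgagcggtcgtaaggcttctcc
Mpc2: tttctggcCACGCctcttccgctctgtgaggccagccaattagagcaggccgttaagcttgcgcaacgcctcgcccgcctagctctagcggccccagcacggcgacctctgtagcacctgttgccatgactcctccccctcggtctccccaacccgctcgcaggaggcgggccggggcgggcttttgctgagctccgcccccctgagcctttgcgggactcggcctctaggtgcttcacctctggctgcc

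The window of Pdk3 held the core 4 times, that of Pdk2 held 2 overlapping matches, 1 on each strand, and those of Pdk1, Mpc1 and Mpc2 held it 1 time each. Matches on opposite strands can overlap, and each was counted. Of the 9 genes with a listed promoter, 8 held a core. The exception was Dlat, and Pdp1 was not matched. The core was also common elsewhere, in 38.6% of 27025 promoters of the same length and in 47.2% of those of genes at a mean FPKM from 1 upward. It was thus present both in genes that were higher and in genes that were lower with ATPγS. The cyclic AMP response element (TGACGTCA, in 1.62% of all promoters), the ERR element (TCAAGGTCA, 0.366%), the FOXO element (TGTTTAC, 3.09%) and the palindromic NRF1 element (0.781%), each searched on both strands, were in 0 of the 9 windows.

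Of the carrier genes, 1 of 2 was at least 2-fold lower in the ATPγS library. Mpc1 (chromosome 17, 8282904 to 8297661, GRCm38), the smaller of the partners that form the channel for pyruvate, was listed at 96.1 FPKM in the control and 41.4 FPKM with ATPγS. The control value was 2.32-fold higher, with a counting interval of 1.77 to 3.04 and a log2 ratio of -1.19. Among the 728 genes at a mean FPKM of 50 to 100, 3.02% passed 2-fold on the lower side and 1.37% were as far down as Mpc1 or farther. Mpc2 (chromosome 1, 165460637 to 165481214), which pairs with Mpc1, was listed at 48.6 FPKM and 25.0 FPKM. Its control value was 1.95-fold higher (interval 1.43 to 2.65), and its log2 ratio of -0.93 fell short of the threshold. Of the 4564 genes at a mean FPKM of 10 to 50, 10.2% were as far or farther on that side. Mpc1 stood above Mpc2 in both libraries, by 1.98 times in the control and 1.66 times with ATPγS. In mouse annotation 480 exon bases of Mpc1 lie opposite the non-coding gene 4930506C21Rik (5.23 and 2.14 FPKM). The library preparation does not mark strand, so reads there cannot be told apart.

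The subunits of the complex differed less. Pdha1 (chromosome X, 160122209 to 160138413), the E1 alpha subunit that the kinases phosphorylate, was listed at 23.0 FPKM in the control and 23.7 FPKM with ATPγS, a ratio of 1.03 with an interval of 0.82 to 1.29. Pdhb (chromosome 14, 8165996 to 8173025), the E1 beta subunit, was listed at 46.4 FPKM and 40.1 FPKM, a ratio of 0.86 with an interval of 0.69 to 1.08. Both intervals include no difference and leave out a change of 1.5-fold in either direction. Dlat (chromosome 9, 50634633 to 50659780), the E2 subunit that carries the lipoyl arm and makes acetyl-CoA, stood far below them, at 3.88 FPKM in the control and 6.87 FPKM with ATPγS. Its ratio was 1.77 (interval 1.18 to 2.78) and its log2 ratio 0.69, a difference reached on the higher side by 19.8% of the 3767 genes at a mean FPKM of 5 to 10. Pdha1 was thus 5.93 times the level of Dlat in the control and 3.45 times with ATPγS. The balance of carrier and E1 transcripts differed: summed Mpc1 and Mpc2 stood at 2.09 times summed Pdha1 and Pdhb in the control and at 1.04 times with ATPγS. This ratio and that of Pdha1 to Dlat were not among the planned results, and no counting interval was computed for them. Exons of Pdha1 share 603 bases with Map3k15 on the opposite strand (1.23 and 2.16 FPKM), and its intronless relative Pdha2, a germ cell form of E1 alpha, was listed at 0.677 and 1.39 FPKM.

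**Figure D2:**
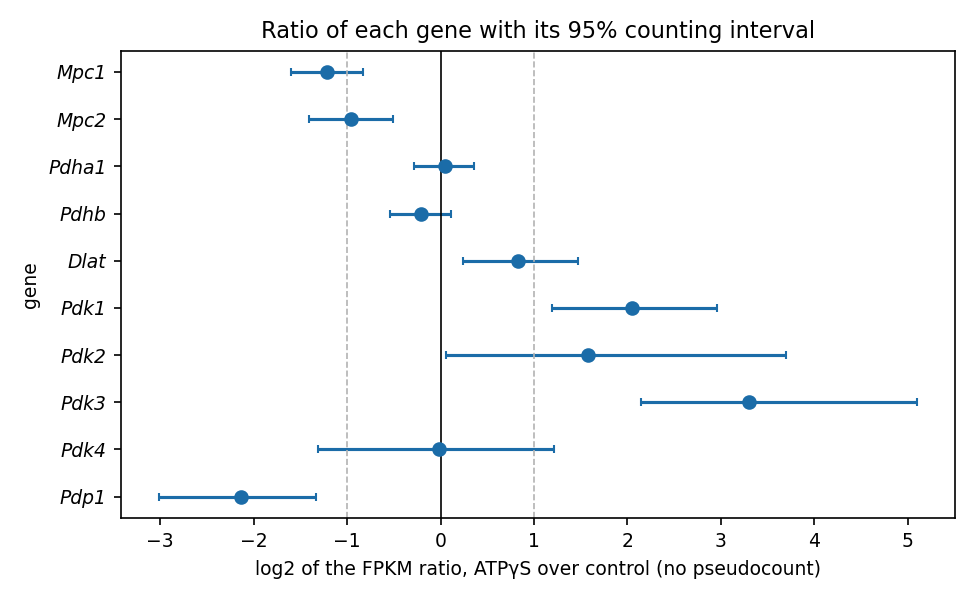
Log2 of the FPKM ratio, ATPγS over control without a pseudocount (x axis), for each gene (y axis), with 95% counting intervals as bars and dashed lines at 2-fold. Pdk3 has the highest ratio and Pdp1 the lowest, and the intervals of Pdha1, Pdhb and Pdk4 cross 0.

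The kinase genes were all low in the control. Pdk3 (chromosome X, 93764607 to 93832201), the kinase known for the highest activity and for escaping inhibition by pyruvate, was listed at 1.22 FPKM in the control and 11.98 FPKM with ATPγS. The ratio was 9.86, with a wide interval of 4.41 to 34.2 because the control value rests on about 5 reads against 72. Among the 3767 genes at a mean FPKM of 5 to 10, 12.7% passed 2-fold on the higher side, and 1.49% reached the log2 ratio of Pdk3, 2.55. Pdk3 reached a mean FPKM of 5 only through its level in the ATPγS library. Pdk1 (chromosome 2, 71873224 to 71903858), known as a kinase induced under hypoxia, was listed at 1.24 FPKM and 5.12 FPKM, from about 14 and 76 reads. Its ratio was 4.14 (interval 2.28 to 7.78) and its log2 ratio 1.45. Low genes differed this much often, and 12% of the 8419 genes at a mean FPKM of 1 to 5 were as far up or farther.

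Pdk2 and Pdk4 gave less. Pdk2 (chromosome 11, 95026258 to 95041354), a widely expressed kinase, was listed at 0.883 FPKM in the control and 2.64 FPKM with ATPγS. Its ratio of 2.99 rests on about 4 and 17 reads, the interval of 1.04 to 12.996 barely leaves out no difference, and its log2 ratio of 0.95 was under the threshold. Pdk4 (chromosome 6, 5483351 to 5496309), the kinase known to be induced by fasting and fatty acids, was listed at 2.46 FPKM and 2.42 FPKM. Its ratio was 0.99, but the interval of 0.40 to 2.32 is too wide to say that Pdk4 did not differ.

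The kinase transcripts made up different shares of their sum. In the control Pdk4 made up 42.4% of the summed kinase FPKM, Pdk1 21.4%, Pdk3 20.98% and Pdk2 15.2%. With ATPγS Pdk3 made up 54.0%, Pdk1 23.1%, Pdk2 11.9% and Pdk4 10.9%. The control levels of the 4 kinases had overlapping counting intervals, from 0.228 to 2.14 FPKM for Pdk2 to 1.27 to 4.55 FPKM for Pdk4, so their order there is not resolved. With ATPγS, Pdk3 (9.35 to 15.1 FPKM) stood clear of Pdk1 (4.05 to 6.44 FPKM). The sum over the kinases was 5.79 FPKM in the control and 22.2 FPKM with ATPγS, a ratio of 3.83. Without Pdk3 the ratio was 2.23, so its size rests largely on this gene. No counting interval was computed for the sum or its ratio.

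Pdp1 (chromosome 4, 11958184 to 11966452), the calcium-stimulated phosphatase that reactivates the complex, was listed at 10.3 FPKM in the control and 2.34 FPKM with ATPγS, from about 56 and 17 reads. The control value was 4.39-fold higher, with an interval of 2.52 to 8.08 and a log2 ratio of -1.75. Among the same 3767 genes, at a mean FPKM of 5 to 10, 11.7% passed 2-fold on the lower side and 2.55% were as far down as Pdp1 or farther. Pdp1 reached a mean FPKM of 5 only through its control level. In a comparison chosen after the values were seen, summed kinase FPKM stood at 0.565 times Pdp1 in the control and at 9.48 times with ATPγS. Such a ratio within a library does not move with the scaling of the libraries, but it compares transcripts and not enzyme activities. Leaving out Pdk3, the values were 0.446 and 4.36. Against the sum of Pdp1 and the other phosphatase gene, Pdp2, the kinases stood at 0.395 times in the control and 3.04 times with ATPγS. The change was then 7.70-fold, in place of 16.8-fold against Pdp1 alone. No counting interval was computed for these ratios, and they rest on few reads. In the control these were about 14 for Pdk1, 4 for Pdk2, 5 for Pdk3 and 11 for Pdk4, and with ATPγS about 17 for Pdp1.

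**Figure D3:**
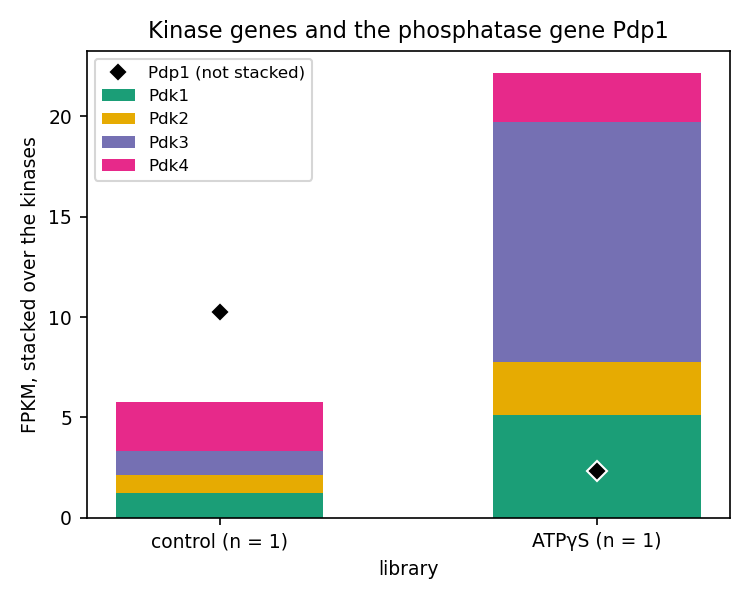
FPKM of the 4 kinase genes, stacked, in the control and the ATPγS library, with the phosphatase gene Pdp1 as a black diamond on the same axis. In the control Pdp1 (10.3 FPKM) lies above the stack (5.79 FPKM), and with ATPγS it lies far below it (2.34 and 22.2 FPKM).

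The order of levels across the pathway differed accordingly. In the control Mpc1 stood highest, followed by Mpc2 and Pdhb, whose counting intervals overlapped, then Pdha1, Pdp1, Dlat and the kinases, of which Pdk4 overlapped Dlat. In the ATPγS library Mpc1 and Pdhb overlapped at the top and Pdha1 overlapped Mpc2 below them. Pdk3 ranked 5 of 10 there, from 9 in the control, and Pdp1 ranked 10, from 5. Dlat overlapped Pdk1, Pdk1 overlapped Pdk2 and, barely, Pdk4, and Pdk2, Pdk4 and Pdp1 overlapped one another at the bottom.

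**Figure D4:**
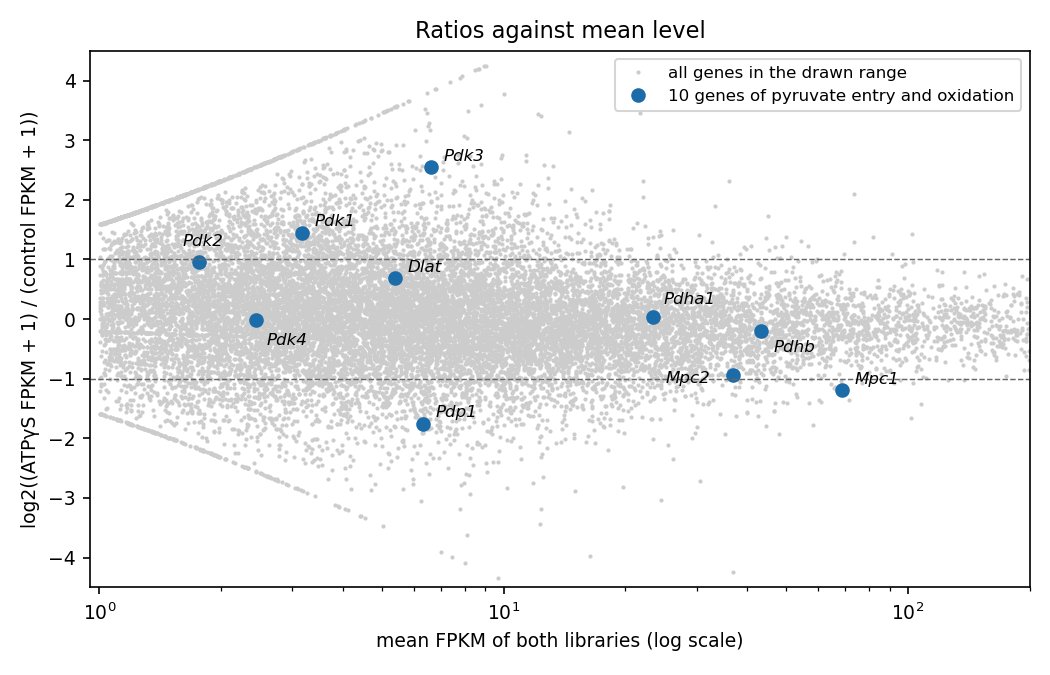
Log2 ratio with a pseudocount of 1 (y axis) against mean FPKM of both libraries (x axis, log scale) for all genes (grey) and the 10 genes (blue), with dashed lines at 2-fold. Of the genes at a mean FPKM from 1 upward, 453 lie outside the drawn range. Pdk3, Pdp1 and Mpc1 lie near the edge of the cloud, and the other 7 lie within it.

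The neighbouring steps were described by 8 lists of 65 genes, 61 of them with a mean FPKM of at least 1. Of these, 9 (14.8%) passed 2-fold on the higher side and 4 (6.56%) on the lower side, beside 13.8% and 9.91% of all genes. In the rest of the complex and its regulators, 0 of 4 genes passed in either direction. Dld, the E3 subunit shared with the other 2-oxoacid dehydrogenases, was listed at 26.3 and 22.8 FPKM in control and ATPγS. Pdhx, which anchors E3 to the core, was listed at 7.36 and 5.86 FPKM, and Pdpr, a regulator of the phosphatase, at 7.67 and 7.15 FPKM. Their intervals include no difference. Pdp2, the other phosphatase gene, added after its values were seen, was listed at 4.41 and 4.95 FPKM, a ratio of 1.12 with an interval of 0.79 to 1.63. Pdp1 thus stood above Pdp2 in the control and below it with ATPγS.

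The complex works only once its E2 subunit carries lipoate. Of 7 genes of lipoate synthesis and transfer, 1 was at least 2-fold lower and 0 higher. It was Lias, the lipoyl synthase that makes the arm of Dlat, at 14.9 and 5.40 FPKM, a ratio of 0.36 (interval 0.22 to 0.60). In the same list Fdx1, a ferredoxin, was listed at 15.6 and 10.7 FPKM and Lipt1, a lipoyl transferase, at 6.21 and 5.45 FPKM.

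The sister 2-oxoacid dehydrogenases, which are built like the pyruvate complex, had 0 of 8 genes at least 2-fold higher and 1 lower. Ogdh, the E1 of the oxoglutarate complex, was listed at 15.4 and 28.7 FPKM, a ratio of 1.86 (interval 1.52 to 2.29). Bckdk, the kinase of the branched-chain complex, related to the PDK family, was listed at 14.1 and 7.38 FPKM, a ratio of 0.52 (interval 0.31 to 0.87). Bckdha, of the branched-chain E1, was listed at 4.18 and 7.64 FPKM. The lower gene, Bckdhb, its partner subunit, added after its values were seen, stood at 6.26 and 1.53 FPKM.

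The list of other reactions and transport around pyruvate, not all of which consume it, held most of the higher genes of these lists. Of its 11 genes, 5 were at least 2-fold higher and 0 lower, beside 13.8% and 9.91% of all genes. The list median log2 ratio was 0.97. Slc16a1, a monocarboxylate transporter, was listed at 4.72 and 11.5 FPKM, a ratio of 2.44 (interval 1.72 to 3.45). Ldhb, the lactate dehydrogenase subunit that favours pyruvate formation, was listed at 6.00 and 13.2 FPKM, and it and Slc16a1 passed the threshold. Me1, the cytosolic malic enzyme, was listed at 3.25 and 7.32 FPKM, just under it. The other 3 of the 5, added after their values were seen, were low in the control: the alanine transaminase gene Gpt (0.236 and 4.76 FPKM), the malic enzyme gene Me3 (0.696 and 3.97 FPKM) and the mitochondrial PEP carboxykinase gene Pck2 (1.59 and 5.18 FPKM). At a mean FPKM of 1 to 5, 21.2% of all genes passed on this side. Gpt and Me3 reached a mean FPKM of 1 only through their levels in the ATPγS library, which favours a call on the higher side. The most abundant gene of the list, Ldha, added in the same way, was listed at 463 and 508 FPKM.

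Among the 11 genes of acetyl-CoA use and export 0 were at least 2-fold higher and 1 lower, Crat, a carnitine acetyltransferase added after its values were seen (4.93 and 1.81 FPKM, interval of the ratio 0.09 to 1.68). Cpt1a, the gate of fatty acid entry into mitochondria, was listed at 10.1 and 5.10 FPKM, Cpt2, its inner membrane partner, at 5.42 and 10.6 FPKM, and Acat1, a thiolase, at 6.18 and 11.7 FPKM. Of the 3 porin genes of the outer membrane, through which pyruvate passes before it meets the carrier, 1 was at least 2-fold higher, Vdac1 (10.3 and 31.4 FPKM, a ratio of 3.06, interval 2.05 to 4.63). Vdac2 (38.5 and 50.3 FPKM) and Vdac3 (72.9 and 93.9 FPKM) were listed at ratios of 1.31 and 1.29.

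Of 13 genes for known regulators of the kinase genes, 2 were at least 2-fold higher and 0 lower. These were Esrra, an orphan nuclear receptor (4.28 and 9.88 FPKM, interval of the ratio 0.87 to 5.99), and, added after its values were seen, Ppara, a fatty acid sensing receptor (0.931 and 4.18 FPKM). Ppara had a mean FPKM of at least 1 only through its level in the ATPγS library. Nr3c1, the glucocorticoid receptor, was listed at 24.0 and 20.5 FPKM and Nrf1 at 24.1 and 18.1 FPKM. Hif1a, the inducible subunit of HIF, added in the same way, was listed at 63.9 and 55.9 FPKM, a ratio of 0.88 (interval 0.78 to 0.98).

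The sorted cells carried transcripts of the gate and of other cells. Itgam, which encodes CD11b, was listed at 112 and 144 FPKM, Ly6c1 at 133 and 166 FPKM and Ly6c2 at 70.9 and 63.7 FPKM. The gate marker Ly6g was not found under that symbol in the values used here. The 12 neutrophil markers, led by S100a8 and S100a9, summed to 41954 FPKM in the control and 45158 FPKM with ATPγS, with 0 past 2-fold. The 8 monocyte markers, led by Ms4a6c and Ctss, summed to 411 and 407 FPKM, with 0 past 2-fold. The 10 T and NK cell markers, led by Cd3g (76.5 and 19.4 FPKM) and Lck (64.9 and 20.4 FPKM), summed to 261 and 92.1 FPKM, with 6 at least 2-fold lower, 1 higher and 0 listed at 0. Their sum thus lay on the lower side, as did Mpc1 and Pdp1. The 10 macrophage and dendritic cell markers, led by Adgre1 and C1qb, summed to 262 and 402 FPKM, with 2 higher, 1 lower and 0 listed at 0, a sum on the higher side, as were Pdk1 and Pdk3. The 8 markers of B and plasma cells, led by Jchain and Cd79a, summed to 1325 and 934 FPKM, with 1 lower. Those of eosinophils, basophils and mast cells, led by Ccr3 and Kit, summed to 122 and 78.2 FPKM, with 2 lower. Erythroid and platelet markers, led by Hba-a1 and Pf4, summed to 777 and 721 FPKM with 3 higher, epithelial markers, led by Krt8 and Krt18, to 114 and 88.6 FPKM with 1 higher, and stromal and endothelial markers, led by Col3a1 and Col1a2, to 355 and 381 FPKM with 0 past 2-fold. The sums of B and plasma cell, of eosinophil, basophil and mast cell, and of epithelial markers thus also lay on the lower side. Those of monocyte, neutrophil, erythroid and platelet, and stromal and endothelial markers differed little, and no direction is given for them. Of the marker lists, that of T and NK cells had the lowest median log2 ratio, -1.35. Its 6 of 10 genes at least 2-fold lower stand beside 9.91% of all genes. The erythroid and platelet list had the highest median, 1.18, though its sum differed little. The part of these cells in the values of the 10 genes was not tested.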

How the data were processed

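Per the submitters' processing notes, the authors used Cufflinks 2.2.1, SAMtools 0.1.19, Bowtie2 2.2.3 and TopHat2 2.0.13 with mm10. The deposited values are FPKM per gene symbol, 1 library per group. The sources used here name neither the annotation nor the options. Per the labels' protocols, cDNA was made with SMART-Seq HT and libraries with Nextera. FPKM are not counts, so no count test was run.

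Library totals were recovered as the totals at which FPKM times coding length came out in whole reads, within 0.05, for 1112 olfactory and vomeronasal receptor genes. This held for 72.8% of values under 10 reads in the control and 72.7% with ATPγS, where chance gives 10% for a total fixed beforehand. The totals were chosen from many to make this share high, so it is not an independent test of them. The ratio of the totals was 1.34. Reads per gene used the median length of its protein-coding transcripts in GENCODE M21 (GRCm38, the build mm10), which held 95.7% of the symbols, and are estimates, since the authors' models of a gene may differ. Intervals are exact binomial (Clopper-Pearson) for ratios and exact Poisson for levels, at 95%, and cover counting error only, since PCR copies cannot be told from molecules.

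A pseudocount of 1, a mean FPKM of at least 1 and a 2-fold threshold were used. The genes named were the 10, up to 3 per pathway list at a mean FPKM of at least 5 with the largest log2 ratio in either direction, the gate markers and the 2 highest of each other marker list. The results of some named genes are not reported here. The 10 genes and all lists were chosen with earlier results of these data known. Pseudocounts of 0.1 and 5, rescaling, other filters and thresholds and other transcript lengths were tried. The steps were tested on simulated data. Python 3.11.15, pandas 2.3.3 and scipy 1.17.1 were used.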

Additional observations from a re-analysis of the deposited data

How the results depend on the processing

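The directions of Mpc1, Mpc2, Pdp1, Pdk1, Pdk2 and Pdk3 held under both rescalings. A pseudocount changes the size of a log2 ratio but cannot change its direction, so the pseudocounts did not test this. The rescalings shift the median log2 ratio of genes at a mean FPKM of 10 or more by 0.05 (scaled to the same sum) and 0.13 (centred). Values closer to 0 than that have no direction. With a pseudocount of 5, 1 of the 10 genes was at least 2-fold higher and 2 lower, beside 3.06% and 2.52% of all genes (log2 ratios of 0.70 for Pdk1, 1.45 for Pdk3 and -1.06 for Pdp1), and 1 gene of the pathway lists was higher and 0 lower. A mean FPKM of at least 5 left 1 of 7 genes higher and 2 lower, beside 7.48% and 9.04% of all genes, turned their median log2 ratio to -0.21 as low kinases dropped out, and left 4 pathway genes higher and 2 lower. Dlat and Pdk3 passed this filter only through the ATPγS library and Pdp1 only through the control. The filter therefore cannot test the calls of Pdk3 and Pdp1. With a pseudocount of 0.1, 3 of the 10 were higher and 2 lower (18.6% and 13.4% of all genes), and after centring also 3 and 2 (15.9% and 8.19%). At 1.5-fold, 4 of the 10 were higher and 3 lower, with 15 pathway genes higher and 10 lower. At 3-fold, 1 of the 10 was higher and 1 lower, with 1 pathway gene higher and 0 lower. Centring at a median of 0 gave a median of 0.12 for the 10 genes and a summed kinase ratio of 4.19, the mean in place of the median gave 0.16, and the summed kinase ratio without Pdk3 was 2.23. The change of the kinase to Pdp1 ratio, 16.8-fold, was 9.76-fold without Pdk3, 26.0-fold without Pdk4 and 7.70-fold with Pdp2 added to Pdp1. Both the ratio itself and these alternatives were chosen after seeing the data. Transcript lengths left 7 of the 10 intervals without 1 in each case. No paired analysis was possible because each group has 1 library. Depth limits Pdk2, Pdk3 and Pdk4 most, with 4, 5 and 11 reads in the control.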
